A study of Mus musculus with 6 samples.

Results

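The genes described are 10 components of the lysosomal mTORC1 machinery: Mtor and Rptor, Rheb, the Ragulator genes Lamtor1 to Lamtor5, and the Rag GTPase genes Rraga and Rragc. They were taken by symbol from gene tables that list 25526 genes. All 10 were found, and all 10 were among the 12775 genes that passed the filter on low counts. RNA was sequenced from 3 p62 knockout and 3 parental cultures of the cell line MOC2, which derives from a mouse oral squamous cell carcinoma. Values per library are given in the order of replicates 1 to 3 of each group. The knockout was made with CRISPR-Cas9 and targets p62, the autophagy receptor encoded by Sqstm1, while the parental cells carry wild-type p62. All cultures grew in DMEM with fetal bovine serum and received no further treatment. The series calls the replicates biological, and whether the knockout cultures came from 1 clone, several clones or a pool is not stated in the labels, so the tests cover the spread among these 6 cultures alone.

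mTORC1 is a protein kinase complex that promotes growth when amino acids and growth factors are available. The kinase mTOR works in it with raptor, the product of Rptor, which brings substrates to the kinase. When amino acids are sufficient, a heterodimer of RagA or RagB with RagC or RagD binds raptor and brings mTORC1 to the lysosome, where the GTPase Rheb activates the kinase. Ragulator is a pentamer that holds the Rag GTPases on the lysosomal membrane. p62 has been reported to bind raptor and the Rag GTPases.

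Libraries held between 32821860 and 41763980 exon reads, and the members were covered by between 518 and 8909 reads per library. Sqstm1 stood at 117, 589 and 125 CPM across the knockout libraries, against 1567, 1783 and 2103 CPM across the parental libraries. CPM are read counts scaled to library size with TMM factors, which correct for differences in library composition. Knockout replicate 2 therefore kept more Sqstm1 RNA than the other two, and on the first principal component of log2 CPM it stood at 8.30, against -60.5 and -61.3 for knockout replicates 1 and 3 and 31.5 to 43.7 for the parental libraries. Results for the members and for called genes are therefore also given without it. The fit without it keeps only knockout replicates 1 and 3 in the knockout group. That fit called 46.2% of all genes, against 9.08% with all 6 libraries. Knockout replicates 1 and 3 were closest to each other, with a chi-square over genes of 7.77 per degree of freedom, while other pairs of the same group gave 40.8 to 317. All these values are above the 1 of sampling noise, and each library was counted as a sample.

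The epithelial marker list of 7 genes summed to between 5099 and 7898 TPM in knockout libraries and between 4809 and 5760 TPM in parental libraries, although the basal keratin gene Krt5 was at or near 0. The mesenchymal list of 8 genes summed to between 856 and 1235 TPM in knockout libraries and between 1705 and 2172 TPM in parental libraries. Its members did not all lie in the direction of the sum. Fn1, which encodes fibronectin, was at 310 to 629 TPM in knockout libraries and 1337 to 1413 TPM in parental libraries, while Vim, which encodes vimentin, was at 886, 201 and 868 TPM across the knockout libraries, against 269, 511 and 719 TPM across the parental libraries. Cdh2 was likewise higher in knockout replicates 1 and 3 (32.8 and 30.5 TPM) than in any parental library (20.7 to 26.5 TPM). Of 7 leukocyte markers, 2 reached 1 TPM in any library. Cd3e was at 0 in all 6 and Ptprc at 0.110 TPM or less. The leukocyte sum was 6.82 to 9.01 TPM in knockout libraries and 39.2 to 43.1 TPM in parental libraries, most of it Cd68, which encodes a lysosomal membrane glycoprotein. The 4 endothelial markers summed to 0.638 TPM or less. In bulk RNA, fewer cells of a type and less RNA per cell cannot be told apart, and the part of these markers in the results below was not tested.

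Lamtor1 was higher and Rptor lower in p62 knockout cells, and the other 8 members did not pass the test. Lamtor1 averaged 77.3 ± 9.97 CPM in knockout cells and 35.6 ± 3.03 CPM in parental cells, a 2.17-fold difference. Rptor averaged 90.9 ± 14.1 CPM in knockout cells and 140 ± 3.24 CPM in parental cells, 1.54-fold lower (SD, n = 3 each). The test was edgeR's quasi-likelihood test, with p-values adjusted over all 12775 genes and a call at an adjusted p below 0.05. It called 2 of the 10 members, or 20%, against 9.08% of all genes tested. By direction, 1 member was higher, against 3.48% of all genes, and 1 was lower, against 5.6% of all genes. Groups did not overlap for 5 members, with Lamtor1, Lamtor5 and Rragc higher and Rptor and Lamtor2 lower in knockout cells. Of all genes tested, 36.3% had groups that did not overlap, 17.2% higher and 19% lower in knockout cells.

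**Figure D1:**
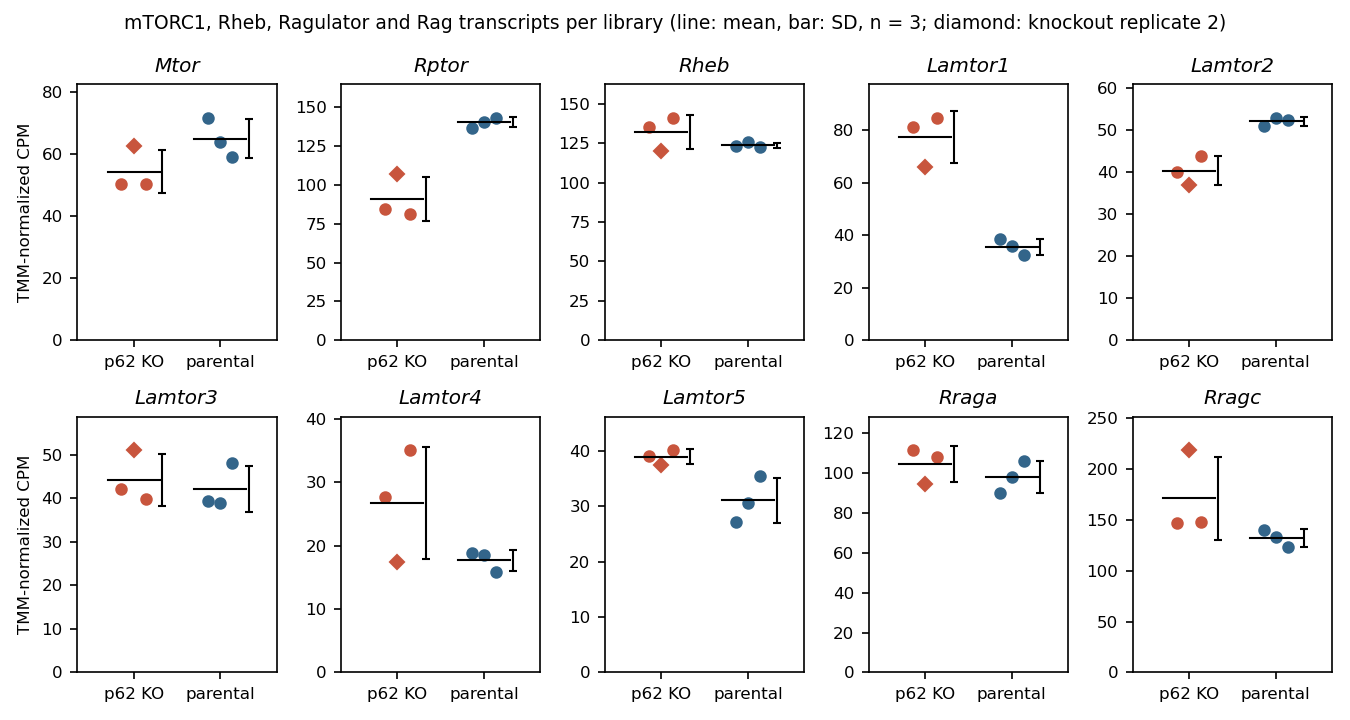
TMM-normalized CPM (y axis, starting at 0) of the 10 members in each p62 knockout library (red, left) and parental library (blue, right). Lines are group means and bars their SD (n = 3 each), and diamonds mark knockout replicate 2. Lamtor1 lies above and Rptor below the parental values in all 3 knockout libraries.

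The kinase subunits were examined first. Mtor (ENSMUSG00000028991), the catalytic subunit, stood at 50.2, 62.5 and 50.4 CPM across the knockout libraries, against 71.7, 63.8 and 59.2 CPM across the parental libraries. Knockout replicate 2 lay within the parental range, and the other two lay below it. The log2 fold change was -0.26 ± 0.15 (SE; 95% interval -0.61 to 0.10; adjusted p = 0.271). With knockout replicate 2 left out, Mtor was 1.30-fold lower (adjusted p = 0.0324), in a fit that called 46.2% of all genes.

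Rptor (ENSMUSG00000025583) stood at 84.4, 107 and 81.2 CPM across the knockout libraries, against 137, 141 and 143 CPM across the parental libraries. Every knockout library was below every parental library, and knockout replicate 2 was the closest to them. Its log2 fold change was -0.63 ± 0.14 (SE; 95% interval -0.96 to -0.29; adjusted p = 0.0414). Without knockout replicate 2 it was -0.77 (adjusted p = 0.00153). The call was lost without knockout replicate 1 (adjusted p = 0.189), knockout replicate 3 (0.166) or parental replicate 1 (0.0967), 2 (0.196) or 3 (0.132), and with the replicate number as a block (0.0841). The log2 fold change in these 6 fits was between -0.65 and -0.55. Between 5.67% and 8.57% of Rptor reads were not uniquely placed, and the call held with unique reads (log2 fold change -0.62, adjusted p = 0.0481).

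The Rptor promoter window is shown because Rptor is the member that edgeR called lower with all 6 libraries. RefSeq places it at chr11:119602655-119602954 of GRCm38.p6 on the plus strand, from 250 bases before to 50 bases after the annotated start. Promoters were searched on both strands for CACGTG, the E-box core bound by the lysosomal regulator TFEB, and for TGACNNNGC, the core of the antioxidant response element bound by NRF2. Matches are in capitals. The Rptor window holds neither.
Rptor promoter: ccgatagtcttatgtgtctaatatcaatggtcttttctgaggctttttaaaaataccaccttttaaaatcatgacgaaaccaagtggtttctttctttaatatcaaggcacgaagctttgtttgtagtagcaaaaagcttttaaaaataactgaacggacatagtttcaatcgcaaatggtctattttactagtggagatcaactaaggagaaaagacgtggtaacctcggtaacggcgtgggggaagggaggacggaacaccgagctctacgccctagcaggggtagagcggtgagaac

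Rheb (ENSMUSG00000028945), the GTPase that activates mTORC1 directly, stood at 135, 120 and 141 CPM across the knockout libraries, against 123, 126 and 123 CPM across the parental libraries. Knockout replicate 2 lay below the parental libraries and the other two above them. This corresponds to a log2 fold change of 0.09 ± 0.11 (SE; adjusted p = 0.596). Its 95% interval, -0.18 to 0.36, spans 0.885-fold to 1.29-fold. The value without knockout replicate 2 was 0.14 (adjusted p = 0.183).

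Of the 5 Ragulator genes, 1 was called higher and the other four were not called. Lamtor1 (ENSMUSG00000030842) encodes the lipid-anchored subunit that fixes the complex to the lysosomal membrane and wraps around the other four. It stood at 81.4, 66.0 and 84.7 CPM across the knockout libraries, against 38.4, 36.0 and 32.4 CPM across the parental libraries. The groups were far apart: the lowest knockout value, in replicate 2, was well above the highest parental value. On the log2 scale the difference was 1.12 ± 0.15 (SE; 95% interval 0.76 to 1.47; adjusted p = 0.0137). With knockout replicate 2 left out, it was 1.21 (adjusted p = 0.000936). The call was lost without knockout replicate 1 (adjusted p = 0.0755) or 3 (0.0764) or parental replicate 2 (0.0997) or 3 (0.0568), while the log2 fold change stayed between 1.05 and 1.21 over all 6 fits with a library left out.

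All Lamtor1 reads were uniquely placed in all 6 libraries. The gene's exons overlap those of Lrrc51 on the opposite strand in the GENCODE M21 annotation of GRCm38, and whether the counting used strand is not stated. Lrrc51 held 42, 163 and 51 reads across the knockout libraries and 140, 95 and 90 across the parental libraries. That is at most 9.03% of the Lamtor1 reads of the same library, and the part of overlapping reads in the Lamtor1 result was not tested. Rptor and Rragc likewise overlap the opposite-strand genes Rptoros and 4930535I16Rik. Neither symbol is among the 25526 genes listed, so their reads could not be set beside those of Rptor and Rragc.

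Lamtor2 (ENSMUSG00000028062) encodes a roadblock-domain subunit that pairs with the product of Lamtor3. It stood at 40.1, 36.9 and 43.8 CPM across the knockout libraries, against 50.8, 52.9 and 52.4 CPM across the parental libraries. All 3 knockout libraries were below all 3 parental libraries. edgeR estimated a log2 fold change of -0.37 ± 0.13 (SE; 95% interval -0.67 to -0.07; adjusted p = 0.0992 by edgeR, 0.0454 by DESeq2). Without knockout replicate 2 it was -0.33 (adjusted p = 0.0386 by edgeR), in the fit that called 46.2% of all genes.

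Lamtor3 (ENSMUSG00000091512) stood at 42.0, 51.1 and 39.8 CPM across the knockout libraries, against 39.3, 38.9 and 48.2 CPM across the parental libraries. The groups overlapped. The log2 fold change was 0.07 ± 0.16 (SE; adjusted p = 0.777), with a 95% interval from 0.809-fold to 1.37-fold, and its sign turned without knockout replicate 2 (-0.06). Lamtor3-ps, a pseudogene, is listed at 0 reads in all 6 libraries.

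Lamtor4 and Lamtor5 encode the second roadblock pair of Ragulator. Lamtor4 (ENSMUSG00000050552) stood at 27.7, 17.4 and 35.1 CPM across the knockout libraries, against 18.8, 18.5 and 15.8 CPM across the parental libraries. Knockout replicates 1 and 3 lay above the parental libraries and replicate 2 among them. Its log2 fold change was 0.59 ± 0.26 (SE; 95% interval -0.02 to 1.20; adjusted p = 0.164). With knockout replicate 2 left out, Lamtor4 was 1.75-fold higher (adjusted p = 0.00647), in the fit that called 46.2% of all genes.

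Lamtor5 (ENSMUSG00000087260) stood at 39.1, 37.4 and 40.1 CPM across the knockout libraries, against 27.2, 30.5 and 35.4 CPM across the parental libraries. The knockout values lay close together and just above the parental ones. This corresponds to a log2 fold change of 0.33 ± 0.15 (SE; 95% interval -0.02 to 0.67; adjusted p = 0.170), and without knockout replicate 2 it was 0.34 (adjusted p = 0.0938).

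**Figure D2:**
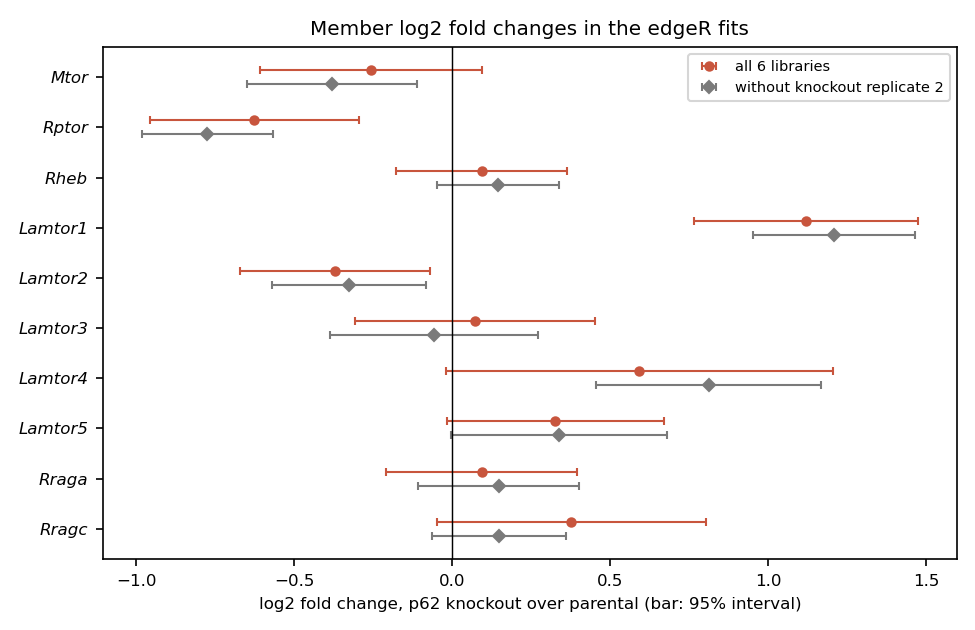
Log2 fold change of p62 knockout over parental cells (x axis) for the 10 members with 95% intervals from the edgeR fits, with all 6 libraries (red circles) and without knockout replicate 2 (grey diamonds). Lamtor1 is at 1.12 and 1.21 and Rptor at -0.63 and -0.77, and neither interval of either gene reaches 0.

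The relative levels of the Ragulator transcripts were compared in TPM, which divides reads by exon length and so allows levels of different genes to be set side by side. Lamtor1 was at 148, 115 and 147 TPM across the knockout libraries, against 72.5, 69.3 and 57.1 TPM across the parental libraries. Lamtor2 was at 136, 120 and 142 TPM across the knockout libraries, against 179, 189 and 172 TPM across the parental libraries. In knockout cells the levels of these subunits thus overlapped, and in parental cells every Lamtor2 value was above every Lamtor1 value.

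The Lamtor1 to Lamtor2 ratio of TPM was 1.09, 0.961 and 1.04 across the knockout libraries, against 0.406, 0.366 and 0.332 across the parental libraries. This ratio was chosen after the values had been seen and is given as a description, with no test. The difference of its log2 means, knockout minus parental, was 1.49, and it was between 1.42 and 1.56 with any library left out. Of the summed TPM of the 5 Lamtor genes, Lamtor1 made up 26.3% ± 1.29 in knockout cells and 14.5% ± 1.605 in parental cells, and Lamtor2 25.5% ± 0.403 in knockout cells and 39.4% ± 0.747 in parental cells (SD, n = 3 each). The shares of Lamtor3, Lamtor4 and Lamtor5 overlapped between the groups.

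The summed TPM of Lamtor2 to Lamtor5 was 382 ± 30.9 in knockout cells and 390 ± 11.3 in parental cells (SD, n = 3 each), with overlapping ranges. With Lamtor1 included the sum was 541, 462 and 553 TPM across the knockout libraries, against 452, 471 and 445 TPM across the parental libraries. Knockout replicate 2 lay within the parental range and the other two above it.

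**Figure D3:**
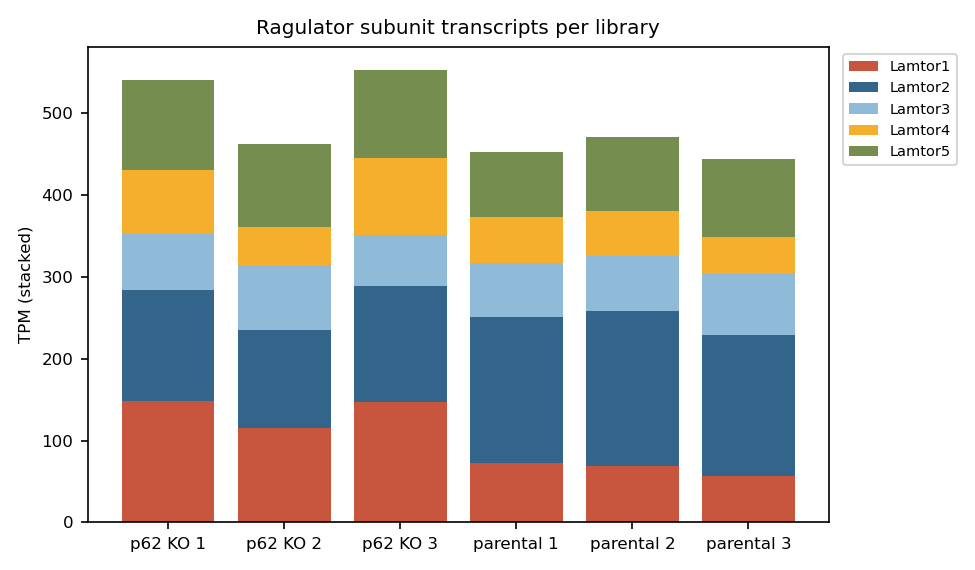
TPM of Lamtor1 to Lamtor5 (stacked, y axis from 0) in each p62 knockout library (left) and parental library (right). Lamtor1, the lowest segment, is at 115 to 148 TPM in knockout libraries and 57.1 to 72.5 TPM in parental libraries.

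The promoter windows of Lamtor1 and Lamtor2 are shown because the TPM ratio of these subunits is set out above. RefSeq places them at chr7:101905587-101905886 on the plus strand and chr3:88552902-88553201 on the minus strand of GRCm38.p6. The capitals in Lamtor1 mark a CACGTG that starts 68 bases before the annotated start, and Lamtor2 holds neither motif.
Lamtor1 promoter: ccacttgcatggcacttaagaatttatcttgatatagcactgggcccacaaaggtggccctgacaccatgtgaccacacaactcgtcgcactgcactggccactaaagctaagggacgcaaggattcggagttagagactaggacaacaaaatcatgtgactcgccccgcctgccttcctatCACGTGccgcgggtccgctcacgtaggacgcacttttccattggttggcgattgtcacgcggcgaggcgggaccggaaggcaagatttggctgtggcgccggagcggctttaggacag
Lamtor2 promoter: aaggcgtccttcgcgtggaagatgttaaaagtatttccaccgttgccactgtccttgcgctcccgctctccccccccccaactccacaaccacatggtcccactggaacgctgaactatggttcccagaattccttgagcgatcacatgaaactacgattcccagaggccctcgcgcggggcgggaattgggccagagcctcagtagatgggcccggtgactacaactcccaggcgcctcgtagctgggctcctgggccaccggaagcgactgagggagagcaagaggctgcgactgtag

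RefSeq windows were found for 9 of the 10 members, Lamtor3 being the one not matched. CACGTG was present in the windows of Lamtor1, Lamtor4, Rragc and Rheb, and in 7.15% of 32851 promoters in the table. Lamtor4 held 2 copies, 120 and 104 bases before its start, Rragc 1 at 112 bases and Rheb 1 at 96 bases, and the Rheb copy overlaps a TGACNNNGC match. The TGACNNNGC core was present in Rheb and Lamtor5, and in 12.4% of all promoters. Of the 4 genes with CACGTG, Lamtor1 was called and Lamtor4, Rragc and Rheb were not, and a letter match is not evidence of binding.

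The Rag GTPases carry the amino acid signal from Ragulator to raptor. Rraga (ENSMUSG00000070934), a single-exon gene encoding RagA, stood at 112, 94.4 and 108 CPM across the knockout libraries, against 90.2, 98.3 and 106 CPM across the parental libraries. The groups overlapped. On the log2 scale the difference was 0.09 ± 0.13 (SE; 95% interval -0.21 to 0.39; adjusted p = 0.638), and 0.15 without knockout replicate 2 (adjusted p = 0.292).

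Rragc (ENSMUSG00000028646), encoding RagC, stood at 147, 218 and 148 CPM across the knockout libraries, against 140, 133 and 123 CPM across the parental libraries. All 3 knockout libraries were above the parental libraries, knockout replicates 1 and 3 narrowly and replicate 2 by far the most. edgeR estimated a log2 fold change of 0.38 ± 0.18 (SE; 95% interval -0.05 to 0.80; adjusted p = 0.194). Without knockout replicate 2 it was 0.15 (adjusted p = 0.205), so most of the mean difference came from that library.

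The paralogs differed in level and pattern. Rragb, encoding RagB, was low, and the ratio of Rraga to Rragb in TPM was 30.3 ± 4.37 in knockout cells and 34.6 ± 11.3 in parental cells (SD, n = 3 each). Rragd, encoding RagD, stood at 20.4, 55.6 and 18.5 CPM across the knockout libraries, against 48.9, 33.9 and 38.1 CPM across the parental libraries. Knockout replicate 2 was the highest of all libraries for Rragd as for Rragc, while knockout replicates 1 and 3 were the lowest for Rragd. The log2 fold change of Rragd was -0.36 ± 0.43 (SE; adjusted p = 0.588). Without knockout replicate 2 it was -1.07 (adjusted p = 0.00488), in the fit that called 46.2% of all genes. Rragd was singled out after its values were seen.

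Per unit of exon length, the order of mean TPM in knockout cells was Rheb (179), Rraga (156), Rragc (138), Lamtor1 (137), Lamtor2 (132), Lamtor5 (106), Lamtor4 (73.5), Lamtor3 (70.1), Rptor (29.4) and Mtor (14.9). Neighbours from Rheb down to Lamtor2 overlapped in their knockout values, as did Lamtor4 and Lamtor3. In parental cells it was Lamtor2 (180), Rheb (176), Rraga (154), Rragc (112), Lamtor5 (88.8), Lamtor3 (69.9), Lamtor1 (66.3), Lamtor4 (51.4), Rptor (47.7) and Mtor (18.8). There the neighbours that overlapped were Lamtor2 and Rheb, Lamtor3 and Lamtor1, and Lamtor4 and Rptor. The mTOR and raptor transcripts were the least abundant in both groups. The ratio of Rptor to Mtor in TPM was 1.98, 2.02 and 1.90 across the knockout libraries, against 2.25, 2.60 and 2.85 across the parental libraries. The groups did not overlap for this ratio, while they did for the ratio of Rraga to Rragc. Both ratios are a description, with no test.

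Knockout replicate 2 did not take the same place for every member. Its CPM lay within the parental range for 3 members, between the parental libraries and the mean of the other knockout replicates for 3, and outside both for 4. The 3 between were Rptor, Lamtor1 and Lamtor5. The mean log2 CPM of Lamtor1 to Lamtor5 was compared with 7627 other genes of at least 20 CPM over the 6 libraries. The most similar profiles were those of Phb2 (Pearson r = 0.997), a prohibitin of the inner mitochondrial membrane, Ryk (r = 0.997), a Wnt-binding receptor, and Elof1 (r = 0.996), a transcription elongation factor. For all 3 of these genes every knockout library lay above every parental library, with knockout replicate 2 between, and the correlations are a description over 6 points that share that split.

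Of 50 other genes of the pathway, set out by role, edgeR called 3 lower and 0 higher, and 47 were not called. These were Castor1, Grb10 and Wdr59. Called genes made up 6% of the list, against 9.08% of all genes. At an unadjusted p under 0.05 there were 4 higher and 10 lower of the 50, against 16.6% higher and 15.8% lower of all genes (32.5% in either direction). DESeq2 called 3 higher and 6 lower, or 18% of the list, against 22.6% of all genes (11.6% higher and 11% lower). The median log2 fold change was -0.22 over the list, 0.09 over the 10 members and 0.02 over all genes tested. With knockout replicate 2 left out, 8 of the 50 were higher and 21 lower, with a median of -0.37, in a fit that called 46.2% of all genes. In that fit 5 of the 10 members were called. Lamtor1 and Lamtor4 were higher, against 23% of all genes, and Rptor, Lamtor2 and Mtor were lower, against 23.2% of all genes.

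Castor1, an arginine sensor that restrains GATOR2 when arginine is short, stood at 10.8, 10.0 and 10.5 CPM across the knockout libraries, against 19.7, 23.7 and 29.2 CPM across the parental libraries. The knockout libraries were nearly equal, replicate 2 included, and all were far below the parental ones. The log2 fold change was -1.21 ± 0.19 (SE; adjusted p = 0.0202), or 2.31-fold lower, and -1.20 without knockout replicate 2 (adjusted p = 0.00486). The call was lost without knockout replicates 1 (adjusted p = 0.104) or 3 (0.104), without parental replicates 2 (0.120) or 3 (0.0669), and with the replicate block (0.0560). Its paralog Castor2 stood at 54.5 ± 4.52 CPM in knockout cells and 98.4 ± 30.2 CPM in parental cells (SD, n = 3 each; adjusted p = 0.0589). Of the 7 amino acid sensors and transporters 1 was called, or 14.3%, against 9.08% of all genes. In 3 of the 7 the groups did not overlap, all lower in knockout cells, against 36.3% of all genes in either direction and 19% lower.

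Wdr59, a subunit of GATOR2, which counteracts the Rag-inactivating complex GATOR1, stood at 37.8, 45.5 and 36.1 CPM across the knockout libraries, against 56.7, 63.3 and 58.9 CPM across the parental libraries. All knockout libraries were below the parental ones. Its log2 fold change was -0.58 ± 0.14 (SE; adjusted p = 0.0496), and -0.70 without knockout replicate 2 (adjusted p = 0.00346). This call was at the threshold and was lost in 10 of 15 other settings, with an adjusted p of up to 0.227, though the log2 fold change stayed between -0.70 and -0.51. Another GATOR2 subunit, Seh1l, which also belongs to the nuclear pore, was at 115 ± 7.82 CPM in knockout cells and 86.01 ± 3.42 CPM in parental cells (SD, n = 3 each; adjusted p = 0.0618). In GATOR1, Nprl2 had the smallest p, at 15.3 ± 2.13 CPM in knockout cells and 21.1 ± 2.56 CPM in parental cells (adjusted p = 0.123).

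Among 14 substrates and effectors, 12 had a negative log2 fold change, against 48.3% of all genes, and 1 was called, or 7.14%, against 9.08% of all genes. Grb10, an adaptor phosphorylated by mTORC1 that dampens insulin receptor signalling, stood at 15.2, 19.2 and 14.2 CPM across the knockout libraries, against 34.1, 31.6 and 31.7 CPM across the parental libraries. Every knockout library was well below every parental one. This corresponds to a log2 fold change of -1.001 ± 0.16 (SE; adjusted p = 0.0226), and of -1.16 without knockout replicate 2 (adjusted p = 0.00113). The call was lost with the replicate block (adjusted p = 0.0617) and without knockout replicates 1 (0.124) or 3 (0.117) or parental replicates 1 (0.0623), 2 (0.144) or 3 (0.0853). Eif4ebp1, which encodes the translation repressor 4E-BP1, stood at 217, 359 and 231 CPM across the knockout libraries, against 357, 416 and 415 CPM across the parental libraries (adjusted p = 0.125). Eif4ebp1 was 1.78-fold lower without knockout replicate 2 (adjusted p = 0.00235), in the fit that called 46.2% of all genes, 23.2% lower. Rps6kb1 went the other way, at 85.0, 73.3 and 80.6 CPM across the knockout libraries, against 67.5, 60.7 and 48.8 CPM across the parental libraries. All its knockout values were above the parental ones (log2 fold change 0.43 ± 0.16, SE; 95% interval 0.06 to 0.80; adjusted p = 0.111). Without knockout replicate 2 its log2 fold change was 0.48 (adjusted p = 0.0357).

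The remaining role groups had no call with 6 libraries in edgeR. Tti1, which helps assemble mTOR and related kinases, had the smallest p among 9 other mTOR complex genes, at 36.9 ± 5.30 CPM in knockout cells and 24.5 ± 1.12 CPM in parental cells (SD, n = 3 each; adjusted p = 0.0565). In this group 3 genes had an unadjusted p under 0.05, against 32.5% of all genes, and DESeq2 called 2 higher and 1 lower, against 22.6% of all genes. Tbc1d7 of the TSC complex (log2 fold change 0.50, adjusted p = 0.256), Itfg2 of KICSTOR (0.17, 0.408) and Rhebl1, a Rheb paralog (-0.23, 0.536), had the smallest p of their groups, and in these 3 groups DESeq2 called 0 genes and 0 had an unadjusted p under 0.05. The folliculin complex activates RagC and RagD, and its Fnip2 stood at 32.6, 54.2 and 32.2 CPM across the knockout libraries, against 57.9, 51.1 and 49.1 CPM across the parental libraries. Knockout replicate 2 lay within the parental range (adjusted p = 0.252), and without it all 3 genes of this complex were lower, Fnip2 by 1.64-fold (adjusted p = 0.00394), in the fit that called 46.2% of all genes, 23.2% lower.

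**Figure D4:**
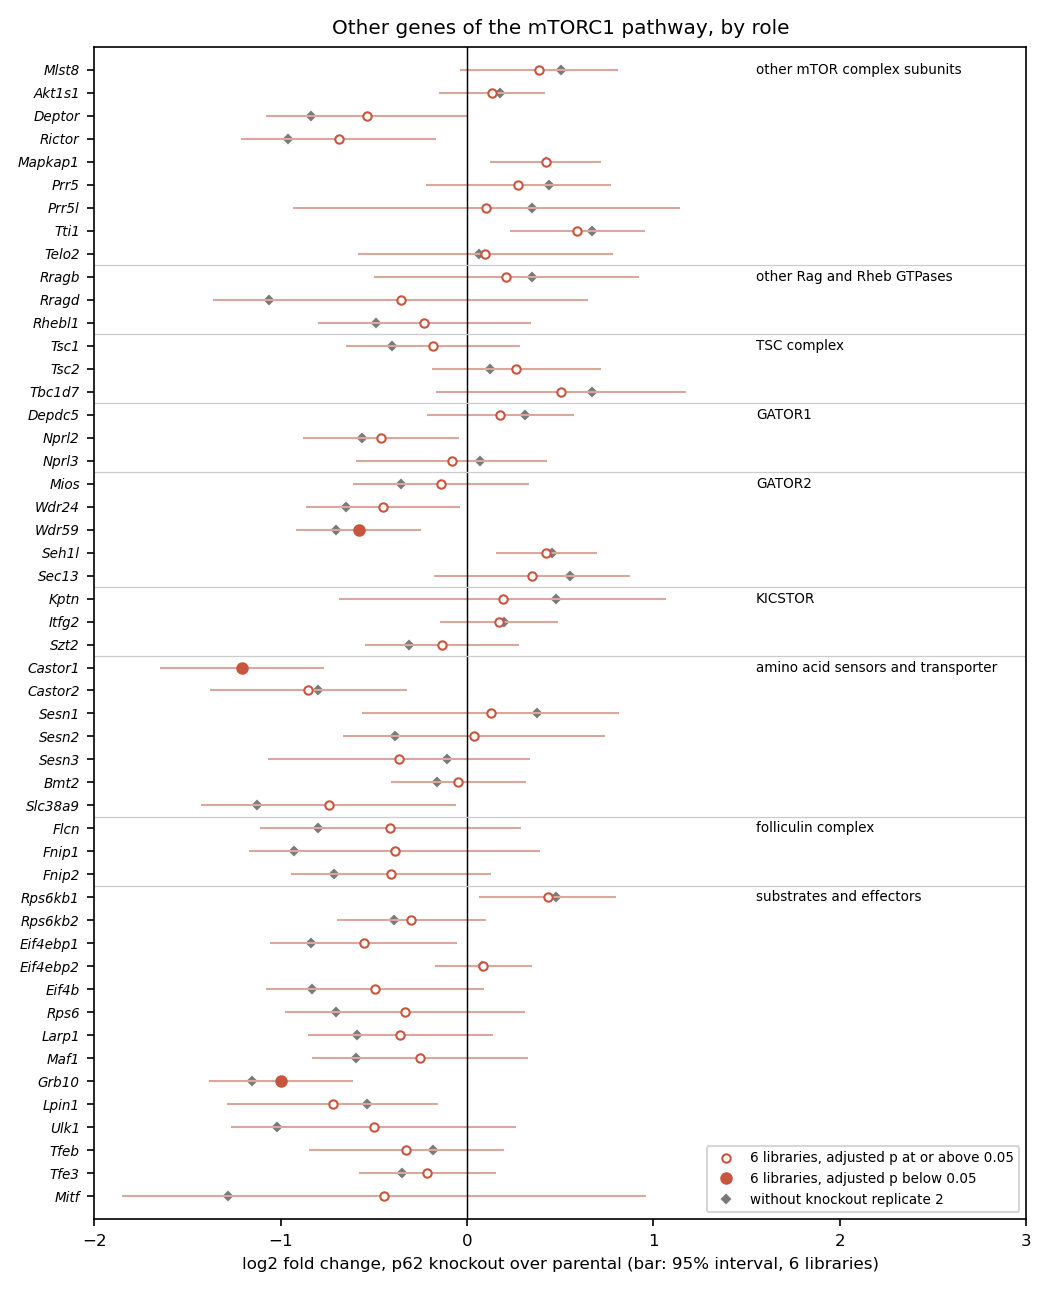
Log2 fold change of p62 knockout over parental cells (x axis) for 50 other mTORC1 pathway genes in 9 role groups. Circles and 95% intervals are from all 6 libraries (filled where called by edgeR) and diamonds are values without knockout replicate 2. The filled circles are Wdr59, Castor1 and Grb10, at -0.58, -1.21 and -1.001.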

How the data were processed

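Per the file headers, the deposited tables give for each gene of 1 library its exon length, its TPM and its exon reads, total and unique. The authors' counts are whole-number exon reads, not normalized. Recomputing TPM from total exon reads and exon length returned the deposited values (largest difference 6e-11). The submitters' processing notes name GRCm39, so GRCm38 was used for promoter sequences and gene overlaps only. The sources used here give neither aligner, counter nor strand setting.

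Groups follow the genotype label. Total exon reads were tested with edgeR 4.0.16 (R 4.3.3): filterByExpr, TMM, glmQLFit, glmQLFTest, Benjamini-Hochberg over 12775 genes. Standard errors and 95% intervals come from the F statistic, and fold changes are knockout over parental. The script was tested on simulated counts. Alternatives were RLE and upper quartile factors, no filter (at least 1 read), at least 5 CPM in 3 libraries, DESeq2 1.42.0, limma-voom (limma 3.58.1), limma on log2(TPM + 1), unique reads, the replicate block, and leaving out each library. Counts of 0 allow 3 reads, or 0.0718 to 0.0914 CPM per library, for counting error only. Members and lists were chosen with earlier results of these data known. Named genes were all members and, per role group, up to 3 called genes in each direction or the gene with the smallest p. Further genes (Castor2, Seh1l, Eif4ebp1, Rps6kb1, Rragb and Rragd) were named after their values were seen.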

Additional observations from a re-analysis of the deposited data

How the results depend on the processing

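The members called numbered 2 with both other scalings, both other filters, limma-voom, limma on log2(TPM + 1) and unique reads, and 3 with DESeq2. The replicate block gave 1, and leaving out a library 0 to 5. It was 0 in edgeR without parental replicate 2 or 3 or knockout replicate 1 or 3. In these fits 2, 4, 2 and 3 of the 10 members had an unadjusted p under 0.05. Over all genes it was 2494 of 12924, 3404 of 13041, 2587 of 13004 and 2577 of 13006, in the same order. Over all genes 1160 were called, 2881 with DESeq2, 257 with the block and 0 to 5973 with a library left out, the 0 without parental replicate 2, where 2494 had an unadjusted p under 0.05. The pathway list of 50 had 3 called genes, 9 with DESeq2, 0 with the block and 0 to 29 with a library left out. With the block, 14 of the 50 had an unadjusted p under 0.05, against 3444 of 12775 genes. The 0 with a library left out came in the same 4 fits as for the members. In each of them 8 of the 50 had an unadjusted p under 0.05, beside the counts over all genes given above. With a library left out, fewer residual degrees of freedom remain than the 4 available with all 6. The sign of Lamtor3 turned with log2(TPM + 1), at -0.0001, and without knockout replicate 2, with a range of -0.0573 to 0.193 over the fits with a library left out; the other 9 members kept their sign in all 15 alternatives. The cause of these changes was not tested. Deviations of same-numbered libraries from their group means correlated at -0.37, -0.10 and 0.28, and those of differently numbered libraries between -0.33 and 0.39. Knockout replicates 1 and 3 gave similar correlations with each parental library. These values therefore cannot decide whether replicate numbers pair the libraries.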
